A study of Mus musculus with 12 samples.

Results

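The promoter of Nptx1, which encodes the secreted neuronal pentraxin NPTX1 found at synapses, was 1 of 24 named baits in a CaptureC experiment in mouse embryonic stem cells (ESCs). Its contacts were taken as all rows of the deposited interaction table that start from the Nptx1 bait fragment, which gave 11 of the 842 contacts in the table and 11 of the 414 contacts of named baits. The account covers 10 of these. Of the 10, 3 overlapped a RING1B peak that also carried PCGF2 in untreated PRC1CPM cells (called PCGF2 sites here), against 130 such contacts over all named baits. The other 7 lay elsewhere (other sites), against 284 over all named baits. Of the PCGF2 sites, 2 lay at the Cbx locus, one over Cbx8 and one upstream of it.

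CaptureC counts how often the bait fragment is ligated to other fragments of crosslinked, DpnII-digested chromatin. Polycomb repressive complex 1 (PRC1) is built around RING1A or RING1B, the catalytic subunits that add ubiquitin to histone H2A. In canonical PRC1 these pair with PCGF2 or a close relative, with a CBX protein that reads the H3K27me3 mark left by PRC2, and with PHC proteins that can join complexes together. Distant target genes of this complex can meet in the nucleus. Nptx1 is one of the developmental genes that Polycomb complexes hold inactive in ESCs, and the cluster of Cbx2 and Cbx8 is bound by them too. CBX2 and CBX8 can be subunits of canonical PRC1, and the region contacted by Nptx1 holds the gene of one of them, Cbx8. Whether CBX2 or CBX8 protein binds Nptx1 was not measured here.

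The 4 groups had 3 replicates each, 12 samples in all, from derivatives of male E14 ESCs. PRC1CPM cells carry inactivating point mutations in both copies of Ring1a and an inverted exon in Ring1b, which ERT2-Cre expressed from Rosa26 turns into a catalytically dead version upon treatment with OHT. They were a single clone and were either untreated (UNT) or treated with 800 nM OHT for 72 h. PRC1DEG cells lack Ring1a, express the Tir1 receptor from Rosa26 and carry an auxin-inducible degron on both copies of Ring1b. The Control line expresses Tir1 with untagged Ring1b and without the deletion of Ring1a. Both of these lines received 0.5 mM auxin for 6 h, so no auxin-free sample is part of the comparison, and the auxin experiment was an earlier one. Below, OHT-treated and PRC1DEG cells are called the treated groups, and untreated and Control cells the reference groups. The auxin pair is thus a contrast of lines that both received auxin. The deposited table pools the replicates of each group into 1 value, so no spread between replicates and no test between conditions could be given. CaptureC of genomic DNA holds no transcript, so neither the cell type nor the state of Ring1b could be checked in these values.

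The bait was the DpnII fragment chr11:119547651-119547929 in GRCm38, 279 bases long. It held the annotated start of Nptx1 at position 119547753 on the minus strand, with 176 bases upstream of the start and 103 bases of the 5′ UTR. CpG dinucleotides, which mark the CpG islands where Polycomb complexes gather, were dense in it, at 15.1 per 100 bases. The capture oligonucleotides are shown because they define what was pulled down, with CpGs in capitals and both on the plus strand. The one at the transcribed end is cut to its first 30 of 70 bases (chr11:119547651-119547680) and the one at the upstream end (chr11:119547864-119547933) is given whole.
Transcribed-end oligonucleotide, first bases: gatCGggctggctggggcagtCGctcCGca
Upstream-end oligonucleotide: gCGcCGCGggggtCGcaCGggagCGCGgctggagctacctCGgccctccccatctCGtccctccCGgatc

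The nearer contact at the Cbx locus, chr11:119051993-119059206, lay at 492 kb, with 19 fragments, in intergenic sequence upstream of Cbx8. It overlapped no annotated gene, and the nearest coding start was that of Cbx8, 11.0 kb away. The other, chr11:119033887-119046022, lay at 508 kb, with 20 fragments, and covered the whole of Cbx8. Its summit fragment, chr11:119037192-119038820, fell on coding sequence and UTR of Cbx8. Together they spanned 25.3 kb, with a gap of 5.97 kb between them. Cbx2 lay just outside, with its end 2.62 kb from the edge of the Cbx8 contact and its start 10.9 kb from it.

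The remaining PCGF2 site lay on the far side of the bait, at 687 kb. It was a single fragment, chr11:120234661-120235855, inside an intron of Bahcc1, which encodes a protein with a BAH domain, and over an exon of the antisense transcript Gm11772. The nearest start of a coding transcript was 0.844 kb away.

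The summit fragments at the PCGF2 sites were rich in CpG, a property that the choice of contacts had not used. There were 5.64 CpGs per 100 bases in the intergenic summit, 4.42 at Cbx8 and 6.11 in Bahcc1. Over all named baits the median was 3.06 at PCGF2 sites and 1.23 at other sites. The 7 other Nptx1 contacts held between 0.826 and 2.78, so these 3 and 7 did not overlap. Over all named baits the kinds of site did overlap, with a lower quartile of 1.47 at PCGF2 sites and an upper quartile of 1.70 at other sites. Of all 414 contacts of named baits, 9.42% had a summit at least as dense as the intergenic one. The shares were 12.6% for the summit at Cbx8 and 7.25% for that in Bahcc1. Stretches of 3 of these regions are printed with CpGs in capitals: the most CpG-dense 200 bases of the intergenic summit (chr11:119053809-119054008, plus strand), those of the Bahcc1 fragment (chr11:120234780-120234979, plus strand), and the 194 bases upstream of the start of Cbx8 (chr11:119040970-119041163, minus strand). The first and second are read from GRCm38 and the third is from RefSeq, GRCm38.p6, whose promoter table held 2 of the 4 genes looked up, Cbx8 and Bahcc1. They are examples of sequence within these contacts from a stretch with no gene, from an intron and from a promoter. The first and second were picked for their CpG density, and the Cbx8 stretch lies outside the summit fragment of its contact. Overlap with a PCGF2 site was given for whole contacts, so binding at these stretches themselves was not tested.
Intergenic summit window: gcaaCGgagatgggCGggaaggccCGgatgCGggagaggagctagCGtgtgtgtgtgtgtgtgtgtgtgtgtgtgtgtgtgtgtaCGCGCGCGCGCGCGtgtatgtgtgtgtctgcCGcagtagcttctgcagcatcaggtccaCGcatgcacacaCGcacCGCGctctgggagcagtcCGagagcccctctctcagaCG
Bahcc1 intronic window: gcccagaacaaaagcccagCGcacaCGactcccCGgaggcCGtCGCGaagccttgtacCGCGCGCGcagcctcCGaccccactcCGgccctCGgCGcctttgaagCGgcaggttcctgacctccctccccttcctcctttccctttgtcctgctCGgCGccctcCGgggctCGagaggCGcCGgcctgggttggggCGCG
Cbx8 promoter: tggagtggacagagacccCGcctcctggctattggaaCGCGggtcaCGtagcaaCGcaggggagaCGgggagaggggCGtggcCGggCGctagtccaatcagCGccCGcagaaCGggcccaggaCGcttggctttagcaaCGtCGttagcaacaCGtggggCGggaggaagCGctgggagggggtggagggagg
The intergenic window held 19 CpGs, several of them within a run of alternating bases, and the Bahcc1 window held 23. The Cbx8 stretch held 18, and 11.4% of the 32851 promoter stretches of the same length in the RefSeq table held at least as many, with a median of 4. The motif searched was CG, which reads the same on both strands, and a match describes the letters only.

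In untreated PRC1CPM cells and in Control cells the contact with Cbx8 was the stronger of the pair at the Cbx locus per fragment. Levels are given as the deposited normalized read count divided by the number of DpnII fragments in the contact. Fragments at Cbx8 are longer, with 12136 bases over 20 fragments against 7214 over 19 in the intergenic contact. Per base the intergenic contact held more reads than Cbx8 in both reference groups, so the order stated here rests on the per-fragment scale. The counts of Nptx1 resolved into whole weighted reads, which are given beside them. Levels in the PRC1CPM groups and in the auxin groups come from separate experiments and are compared only within each.

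At Cbx8 the level was 0.0146 in untreated cells (261 reads) and 0.00494 after OHT (81 reads). It was 0.0203 in Control cells (255 reads) and 0.00513 in PRC1DEG cells (69 reads). The treated value was the lower one in both systems, and the 95% Poisson intervals of the levels did not overlap (0.0129 to 0.0164 against 0.00392 to 0.00614, and 0.0179 to 0.0229 against 0.00399 to 0.00649). These intervals, all others given here and the binomial test below treat whole weighted reads as plain counts. Weighted reads of merged replicates need not be totals of sequenced reads, so counting error is covered only as far as this holds. Spread between replicates is not covered, since replicates were pooled, and reads carried no molecular identifiers.

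At the intergenic contact the level was 0.00957 in untreated cells (163 reads) against 0.00289 with OHT (45 reads), and 0.0151 in Control cells (180 reads) against 0.00282 in PRC1DEG cells (36 reads). The treated groups were again low and the reference groups high, with intervals that did not overlap. In both reference groups the per-fragment interval of Cbx8 lay above that of the intergenic contact, whose fragments are shorter.

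The single fragment in Bahcc1 held 11 reads in untreated cells against 2 with OHT, and 14 in Control cells against 7 in PRC1DEG cells. The treated groups were lower here too, but the intervals of the levels overlapped in both systems. At this depth a difference between Control and PRC1DEG cells was not resolved.

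**Figure D1:**
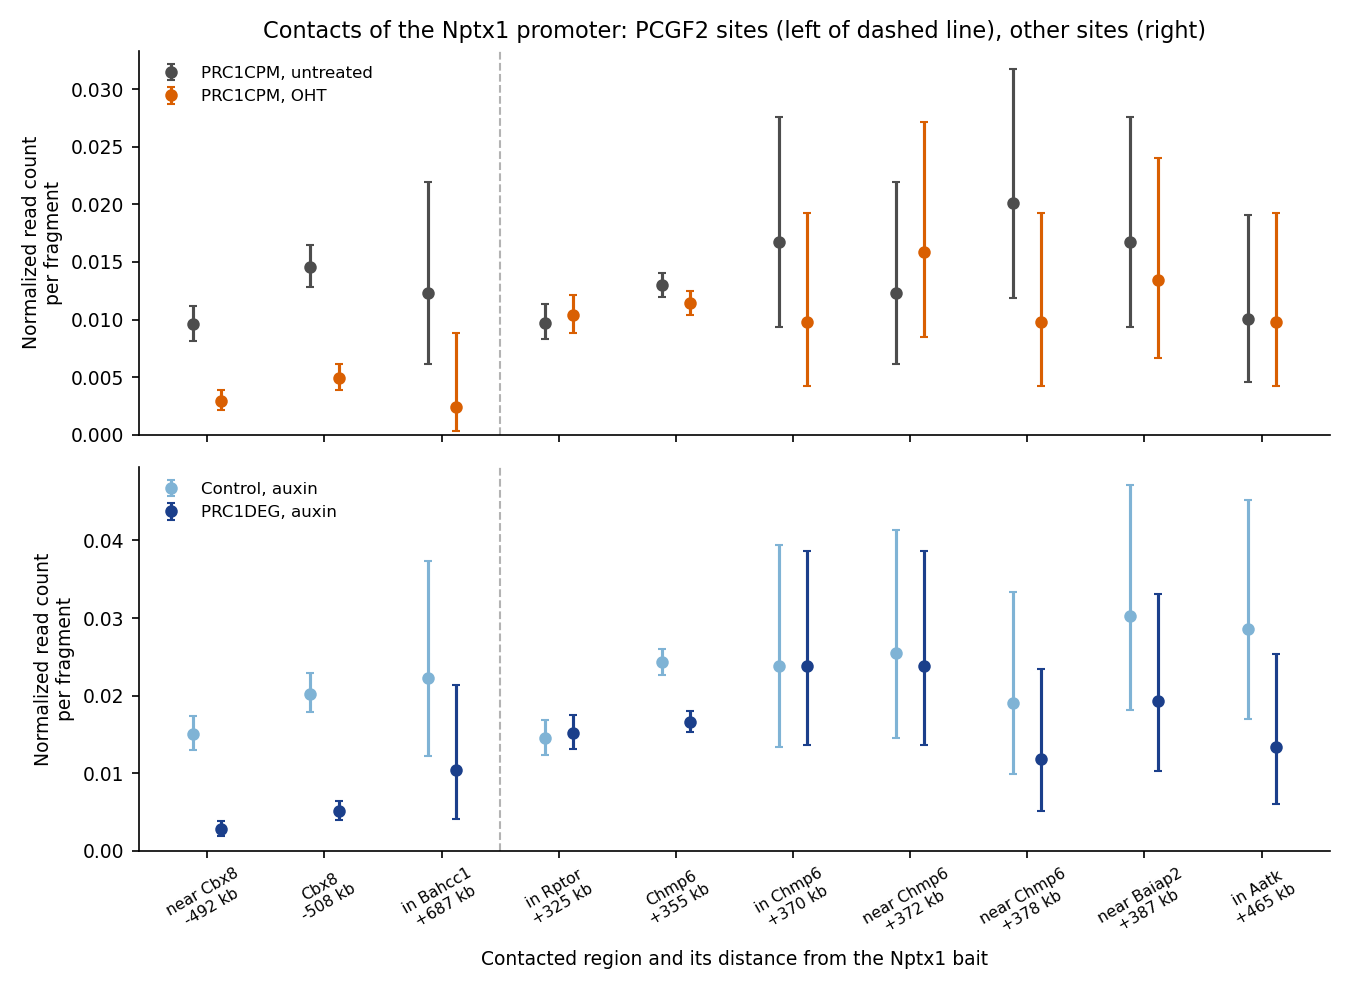
Normalized read count per fragment for 10 Nptx1 contacts (x axis, with distance from the bait in kb), in untreated and OHT-treated PRC1CPM cells (top) and in auxin-treated Control and PRC1DEG cells (bottom). Points are pooled values and bars are 95% Poisson intervals of the reads. The contacts upstream of Cbx8 ("near Cbx8") and at Cbx8 are lower in OHT-treated than in untreated cells and in PRC1DEG than in Control cells, while the Rptor contact stays level.

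The change of each contact is given as the log2 ratio of the treated over the reference level with a pseudocount of 0.00035, the smallest level above 0 in the table. The interval beside it is the 95% Wilson interval of the treated share of the reads, converted to a log2 ratio without the pseudocount, so it lies slightly lower. After OHT the change was −1.62 at the intergenic contact (−2.20 to −1.25) and −1.50 at Cbx8 (−1.92 to −1.20). In PRC1DEG cells it was −2.28 at the intergenic contact (−2.93 to −1.91) and −1.91 at Cbx8 (−2.37 to −1.60). The intervals of the 2 contacts overlapped within each system, so the contact over Cbx8 was not separated from the one beside it.

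In Bahcc1 the change was −2.18 after OHT (−4.34 to −0.32) and −1.07 in PRC1DEG cells (−2.37 to 0.17). The second interval includes 0. With 2 and 7 reads in the treated groups, this contact gives a direction and little more.

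Contacts entered the table where a fragment reached a CHiCAGO interaction score of 5, which weighs reads against those expected at that distance, in at least 1 group, and a change measured from a group that admitted a contact leans towards a fall. The summit fragment passed in both reference groups at Cbx8 and in untreated cells alone at the intergenic contact, and the single fragment in Bahcc1 passed in Control cells alone. So the change of Bahcc1 in PRC1DEG cells was measured from the one group that admitted it, and its change after OHT was not. The change of the intergenic contact after OHT was likewise measured from the one group in which its summit passed, and its change in PRC1DEG cells was not. The counts of contacts that fell, also those by the binomial test below, are therefore given as a description.

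A contact was called lower where its level fell at least 2-fold. These 3 PCGF2 sites of Nptx1 met this after OHT, against 46.9% of the 130 contacts of named baits at PCGF2 sites and 18.4% of all 414. All 3 also met it in PRC1DEG cells, against 76.9% of the 130 and 26.8% of the 414. The median over the 3 changes was −1.62 for OHT and −1.91 for PRC1DEG cells, beside −0.91 and −1.79 over the 130. An exact binomial test of the reads, with Benjamini-Hochberg adjustment over the 414 contacts, found 2 of the 3 lower in each system, the exception being Bahcc1. It found 49.2% of the 130 lower after OHT and 56.9% in PRC1DEG cells, and it compares the pooled libraries, not the conditions. Among the 130 changes after OHT, only 2 were lower than that of Bahcc1, and the intergenic one was the 17th lowest and that at Cbx8 the 20th. In PRC1DEG cells the same contacts stood at places 98, 36 and 54.

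**Figure D2:**
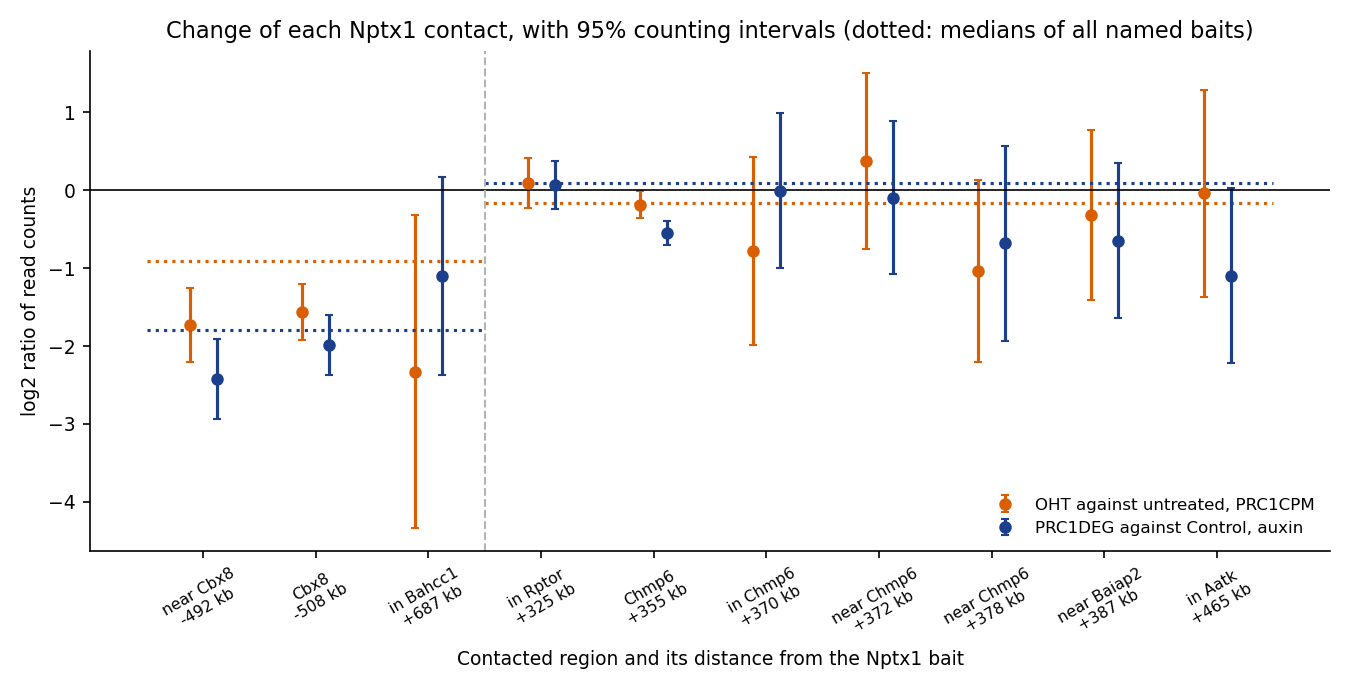
log2 ratio of reads without a pseudocount for 10 Nptx1 contacts (x axis, with distance from the bait in kb), after OHT in PRC1CPM cells (orange) and in PRC1DEG against Control cells (blue). Bars are 95% Wilson counting intervals, and dotted lines are the medians over all contacts of named baits of the same kind, which include the pseudocount. At and near Cbx8 all 4 intervals lie below −1, whereas most intervals at other sites reach across 0.

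Of the 7 other contacts, the largest was chr11:119890778-119915167, at 355 kb on the other side of the bait, with 52 fragments over the end of Rptor and the start of Chmp6. RPTOR is the substrate-binding subunit of the kinase complex mTORC1, and CHMP6 is part of the ESCRT-III membrane-remodelling complex. It held 605 reads in untreated cells and 486 after OHT, a change of −0.18 (interval −0.36 to −0.02). It held 794 reads in Control cells and 581 in PRC1DEG cells, a change of −0.54 (−0.70 to −0.39). Both intervals lie below 0, the first one only just.

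The contact inside Rptor, chr11:119867507-119877701, at 325 kb with 18 fragments, held 157 reads in untreated cells against 153 with OHT, and 164 in Control cells against 184 in PRC1DEG cells. Its changes were 0.09 (−0.23 to 0.41) after OHT and 0.07 (−0.24 to 0.37) in PRC1DEG cells. These intervals lie above those at the Cbx locus. The summit fragment of this contact passed the score of 5 after OHT alone (7.23), so its change after OHT may lean away from a fall. Which groups admitted its other fragments is not known, since scores of single fragments were given for the summit alone.

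The remaining 5 were single fragments with 8 to 19 reads in each group. They lay in Chmp6 (370 kb), in intergenic sequence whose nearest coding start was that of Chmp6 (372 and 378 kb) or of Baiap2 (387 kb), and in Aatk (465 kb). BAIAP2 links the membrane to the actin cytoskeleton, and AATK is a kinase of neurons. Their changes ranged from −1.02 to 0.36 after OHT and from −1.08 to −0.0049 in PRC1DEG cells, and every one of their intervals included 0. The lowest change after OHT was at the fragment 378 kb away (18 and 8 reads), and the lowest in PRC1DEG cells was in Aatk (18 and 9 reads). Each of these was measured from the one group whose score admitted the fragment, untreated cells (6.34) and Control cells (5.19) respectively, so neither low value can be read as a fall.

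The median over the 7 changes was −0.18 for OHT and −0.54 for PRC1DEG cells, beside −0.17 and 0.09 over the 284 contacts of named baits at other sites. In each system 1 of the 7 was at least 2-fold lower, against 5.28% of the 284 after OHT and 3.87% in PRC1DEG cells. These were the 2 single fragments just named, and the binomial test called neither. It called 0 of the 7 lower after OHT and 1 in PRC1DEG cells, the contact at Chmp6, against 4.58% and 3.87% of the 284.

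**Figure D3:**
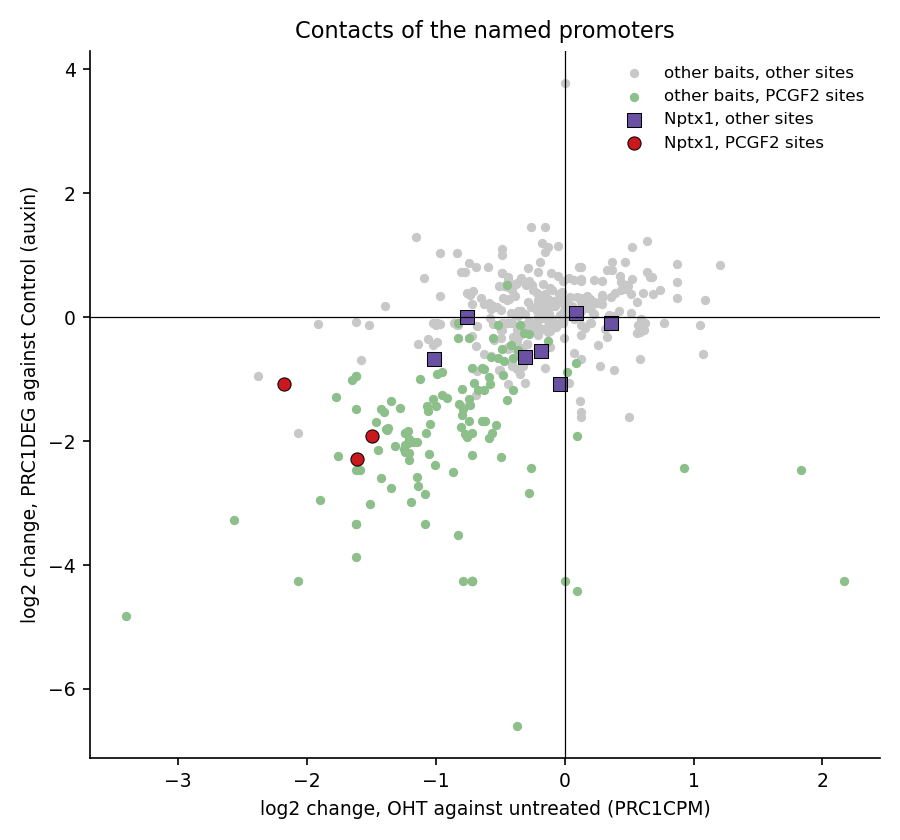
log2 change after OHT in PRC1CPM cells (x axis) against log2 change in PRC1DEG over Control cells (y axis), for 410 contacts of named baits, both with the pseudocount. Each point is 1 contact, and the 10 Nptx1 contacts are outlined. The 3 at PCGF2 sites lie below −1 on both axes, and none of the 7 at other sites does, although 2 of them pass −1 on 1 axis.

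Because every contact of Nptx1 was read from the same bait in the same library, the pair at the Cbx locus can be set against the other contacts without regard to how libraries were scaled. In untreated cells 424 of the 1265 reads over the 10 contacts fell on this pair, a share of 33.5% (95% Wilson interval 31.0 to 36.2). After OHT this was 126 of 815 reads, or 15.5% (13.1 to 18.1). In Control cells it was 435 of 1487 reads, or 29.3% (27.0 to 31.6), and in PRC1DEG cells 105 of 939 reads, or 11.2% (9.32 to 13.4). The share was high in both reference groups and low in both treated groups, with no overlap of the intervals. Entry to the table bears on this share, since the summits of the pair passed the score of 5 in reference groups alone. Among the other contacts, the summit of that in Rptor and the fragment at 372 kb passed after OHT alone, and the remaining single fragments in a reference group alone. The shares, and the ratios and differences below, are therefore given as a description.

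Per fragment, the pair at the Cbx locus was contacted 0.999 times as often as the Rptor and Chmp6 contacts together in untreated cells (interval 0.887 to 1.12), although it lies farther from the bait. The ratio was 0.354 after OHT (0.292 to 0.428). In Control cells it was 0.815 (0.728 to 0.913) and in PRC1DEG cells 0.246 (0.201 to 0.302). Reads summed over the pair kept 32.5% of the untreated level after OHT and 22.6% of the Control level in PRC1DEG cells, against 90.5% and 74.4% for the 7 other contacts. The change of the pair was lower than that of the other contacts by −1.48 on the log2 scale after OHT (−1.80 to −1.16) and by −1.72 in PRC1DEG cells (−2.06 to −1.39).

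**Figure D4:**
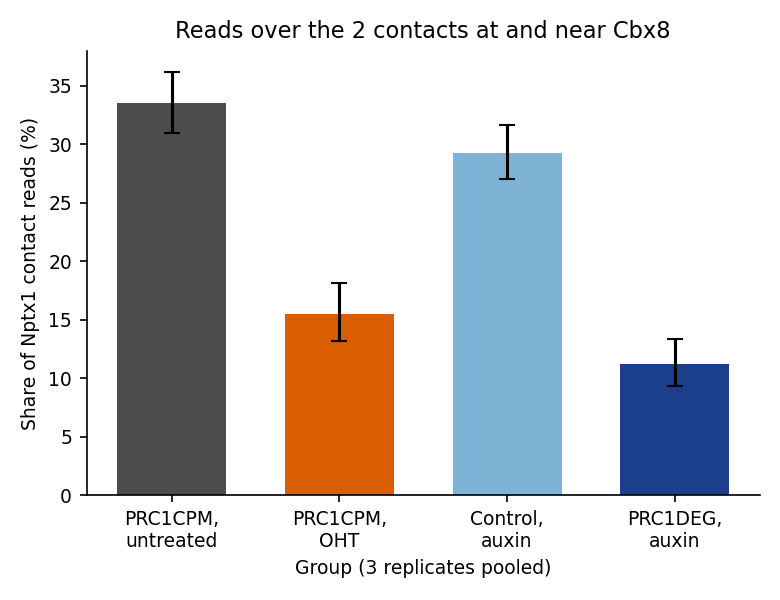
Share of the reads over 10 Nptx1 contacts that fell on the 2 contacts at and near Cbx8 (y axis, percent), in each pooled group (x axis). Bars are shares and error bars are 95% Wilson intervals. The shares are 33.5% and 29.3% in untreated and Control cells, and 15.5% and 11.2% in OHT-treated and PRC1DEG cells.

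The systems were compared by the difference of their changes, PRC1DEG minus OHT, with an interval built from both Wilson intervals. They differ in cell line, treatment time and capture experiment, which cannot be told apart from the kind of perturbation. Ring1a was deleted in PRC1DEG but not in Control cells, whereas both PRC1CPM groups carry the Ring1a mutations. The difference of the ratios without the pseudocount was −0.69 at the intergenic contact (−1.39 to 0.01) and −0.42 at Cbx8 (−0.95 to 0.10). Both point to the larger fall in PRC1DEG cells, but both intervals include 0. Over the summed reads of the pair the difference was −0.53 (−0.95 to −0.11).

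The other contacts shifted the same way. Their summed reads differed by −0.28 between the systems (−0.48 to −0.08), and without the contact at Chmp6 by −0.05 (−0.43 to 0.32). Taken relative to the other contacts of the bait, the difference between the systems at the Cbx locus was −0.24, with an interval of −0.71 to 0.22 that includes 0. Scaling moved the difference at Cbx8, from −0.42 with the pseudocount to −0.16 when levels were divided by the sum over the Nptx1 contacts and to −0.68 when they were centred on contacts outside PCGF2 sites. In Bahcc1 the difference pointed the other way, at 1.23, with an interval of −1.14 to 3.61.

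The CHiCAGO scores gave a similar order of groups. A high score in at least 1 group was the condition of entry, as given above. At Cbx8 the summit scored 6.88 in untreated cells against 3.53 with OHT, and 9.92 in Control cells against 0.0678 in PRC1DEG cells. At the intergenic contact it was 9.24, 1.21, 3.51 and 0 in the same order of groups. In Bahcc1 it was 2.49, 0, 5.90 and 0.943. The treated score was below that of its own reference group at all 3.

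Of the 3 PCGF2 sites, 2 had a summit score of at least 5 in untreated cells (against 66.2% of the 130 contacts of named baits at such sites) and 0 with OHT (11.5%), while 2 had it in Control cells (53.1%) and 0 in PRC1DEG cells (2.31%). Cbx8 was the one contact of the 3 with such a score in both reference groups. Of the 7 other contacts, 4 reached 5 in untreated cells (62.0% of the 284) and 3 with OHT (38.4%), while 2 did in Control cells (9.86%) and 0 in PRC1DEG cells (10.6%). The set of other contacts that passed moved between groups. The contact in Rptor had 7.23 after OHT against 2.57 in untreated cells, and that at Chmp6 had 10.3 after OHT against 5.93. The summit fragments alone had levels of 0.0167 in untreated cells and 0.0232 after OHT in Rptor, and of 0.0201 and 0.0293 at Chmp6, while the levels over the whole contacts were close together or lower, as given above. Averaged over the fragments of each contact, the median score at the 3 PCGF2 sites was 2.49 in untreated cells against 0.466 with OHT, and 4.01 in Control cells against 0.00658 in PRC1DEG cells, beside 3.60, 0.760, 3.78 and 0 over the 130. Over the 7 other contacts it was 3.42, 3.16, 2.98 and 1.85, beside 4.47, 3.27, 1.22 and 1.47 over the 284.

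**Figure D5:**
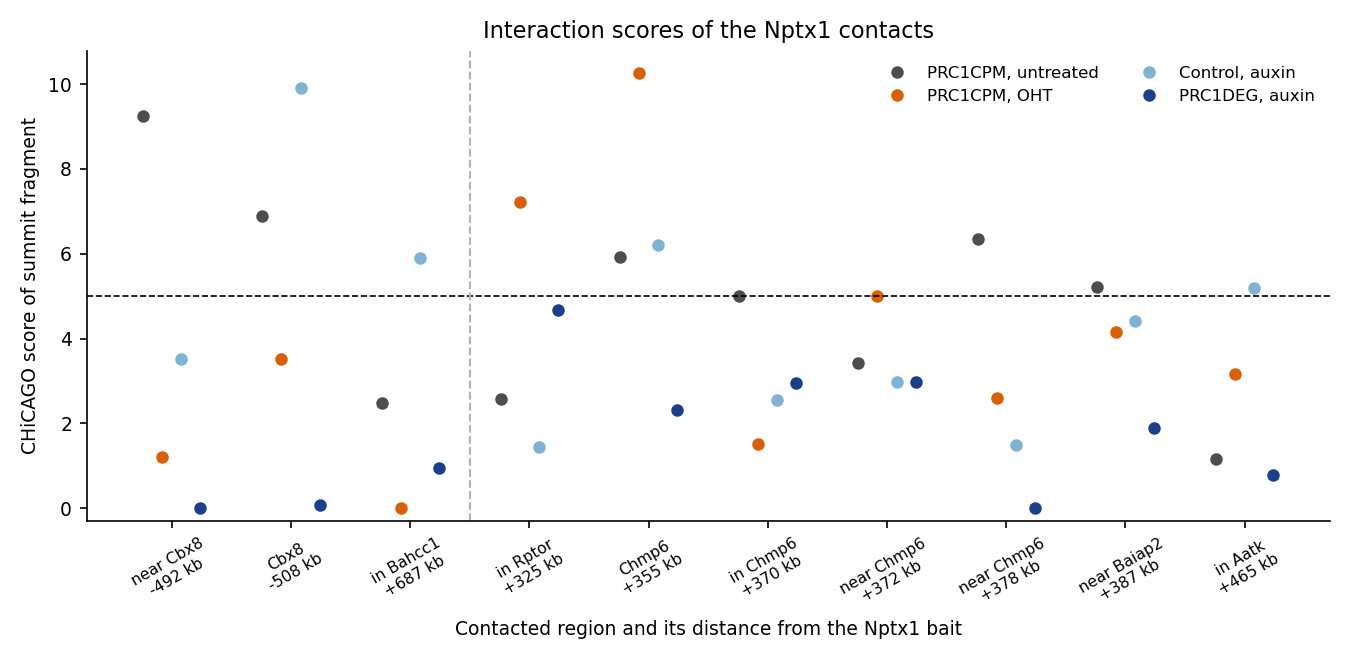
CHiCAGO score of the summit fragment (y axis) of 10 Nptx1 contacts (x axis, with distance from the bait in kb) in the 4 pooled groups. The dashed horizontal line is the score of 5 used to call contacts. At the 3 PCGF2 sites neither OHT-treated nor PRC1DEG cells reach it, whereas OHT-treated cells exceed it at Rptor and Chmp6.

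The Cbx locus was also reached by baits in the Hoxb cluster, a group of developmental transcription factor genes on the same chromosome. Hoxb1, Hoxb2, Hoxb3 and Hoxb5 had 5 contacts with the stretch around Cbx8 at PCGF2 sites, from 22.7 to 22.8 Mb away. The intergenic fragment chr11:119053685-119054411, the summit of the Nptx1 contact, was also the summit of a Hoxb2 contact and the whole of the Hoxb5 contact. Of the 32 genes of PRC1 and PRC2 looked up in the contacts of all baits, the start of 1 was found, Cbx8, in contacts of Nptx1, Hoxb2 and Hoxb3. None of the 6 pentraxin genes looked up had its start in a contact.

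The Hoxb contacts were weak, with levels of 0.00112 to 0.00298 in untreated cells. Their summed reads were 275 in untreated cells against 111 with OHT, and 308 in Control cells against 55 in PRC1DEG cells. They kept 44.1% of the untreated level after OHT and 16.7% of the Control level in PRC1DEG cells. The sums cover unlike stretches, with 39 fragments in the Nptx1 pair. Of the 275 untreated Hoxb reads, 190 came from 1 Hoxb3 contact of 73 fragments, which also spans the gap between the pair. The Hoxb5 contact held 1 read in untreated cells and 0 after OHT. Over these unlike stretches the summed fall after OHT was larger from the Nptx1 bait than from the Hoxb baits. The log2 difference was −0.44 (−0.87 to −0.01), and whether it belongs to the baits was not tested. In PRC1DEG cells the difference was 0.43, with an interval of −0.08 to 0.95 that includes 0. The Hoxb contacts overlap one another and their baits are neighbours, so the 5 are not independent of each other.

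Among the 94 contacts of other named baits at PCGF2 sites that came within 4-fold of the strength of the one over Cbx8 or exceeded it, the 3 nearest to it in the plane of both changes were those of Hoxd10 with a region 0.469 kb from the start of Hoxd3, of Isl1 with Fst and of Nkx2-1 with Nkx2-9. Their changes were −1.38 and −1.82 (Hoxd10), −1.39 and −1.80 (Isl1) and −1.37 and −1.79 (Nkx2-1), after OHT and in PRC1DEG cells respectively. The distances in this plane were 0.148, 0.157 and 0.177, over 4 pooled groups. These contacts spanned 43.9 kb, 1850 kb and 76.9 kb.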

How the data were processed

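CaptureC libraries were mapped by the authors to mm10 with HiCUP and Bowtie2 and scored with CHiCAGO. The deposited signal is the weighted read count of merged replicates, which the authors scaled to the captured reads and to how many promoters were captured. The deposited score values are CHiCAGO scores. Both were summed by the authors over the fragments of a contact, after joining close fragments that scored at least 5 in any sample.

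Signal was divided by the fragment number and, in 100% of values (tolerance 0.1), resolved into whole reads. In the auxin columns 2 steps were found, which split the 44 baits into 19, with Nptx1, and 25. Groups came from the sample labels. Genes are from GENCODE (GRCm38), and all 24 named bait fragments began with GATC. Python 3.11.15, scipy 1.17.1 and pysam 0.24.0 were used. Counting intervals were checked on simulated Poisson reads, which cannot show whether weighted reads of merged replicates follow that model. The 20 unnamed baits were left out, and 1 contact of Nptx1 is not reported here.

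Members and gene lists were chosen with earlier results of these data known. PCGF2 sites were described in full, other contacts by reads, and like contacts by the distance between changes. Values were recomputed with other pseudocounts, scaling, centring, floors, filters and thresholds. The comparisons with other contacts of the bait and with the Hoxb baits, and the binomial test, were chosen after seeing the data.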

Additional observations from a re-analysis of the deposited data

Results flagged for a closer look

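Of the 10 contacts, 1 was flagged because its interval for the difference between the systems excluded 0, that over the end of Rptor and the start of Chmp6. The difference was −0.36 for PRC1DEG minus OHT on the log2 scale (interval −0.59 to −0.13), with no adjustment for picking it among the 10. It rests on 1 pooled library per group, so the spread between replicates does not enter the interval.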

How the results depend on the processing

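No paired analysis was possible because each column pools the 3 replicates of a group. For the same reason neither the replicate block nor leaving out a replicate was run. Directions at Cbx8 and over the PCGF2 sites held under every alternative run: OHT from −1.56 to −0.99 and from −1.90 to −1.10, PRC1DEG from −2.01 to −1.15 and from −2.10 to −1.15.

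With a pseudocount 10 times larger the changes at Cbx8 were −1.10 and −1.46, as were those over the PCGF2 sites. Divided by the sum over the Nptx1 contacts they were −0.99 and −1.15 at Cbx8, and −1.11 and −1.15 over the PCGF2 sites. That sum falls with the PCGF2 sites, and dividing by it turned the other contacts to 0.32 after OHT and 0.22 in PRC1DEG cells, and their difference between systems to −0.069. Centred on contacts outside PCGF2 sites, whose medians were −0.17 and 0.09, other contacts changed by −0.015 after OHT and differed by −0.59 between systems. Leaving out 1 contact at a time moved the PCGF2 sites in PRC1DEG cells up to −1.49 and the other contacts there up to −0.32. It moved the difference between systems at PCGF2 sites, with a median of −0.42, to between −0.54 (without Bahcc1) and 0.34 (without the intergenic contact).

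Summit scores had medians of 6.88, 1.21 and 5.90 at PCGF2 sites in untreated, OHT and Control cells. At a threshold of 10 the calls were 0 at PCGF2 sites in untreated and Control cells and at other sites 0, 1 and 0 in untreated, OHT and Control cells. At 3 they were 1 at PCGF2 sites after OHT, and 5 and 1 at other sites after OHT and in PRC1DEG cells. By the mean score they were 0 and 1 at PCGF2 sites in untreated and Control cells, and 1 and 1 at other sites after OHT and in Control cells. The binomial test called 0 other contacts after OHT, where the fold threshold called 1. Depth limits the single fragments, which held 2 to 19 reads in a group.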
